A study of Mus musculus with 8 samples.

Results

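Caveolae are small flask-shaped pits of the plasma membrane, and the 9 genes described here encode their main building parts: the caveolins Cav1, Cav2 and Cav3, the cavins Ptrf, Sdpr, Prkcdbp and Murc, and the membrane-shaping proteins Ehd2 and Pacsin2. They were taken by symbol from a table of 22518 genes, under the older symbols of the cavins (now Cavin1, Cavin2, Cavin3 and Cavin4). All 9 were found, each on 1 row, and all 9 were among the 11390 genes tested, those whose mean reached 1 FPKM (fragments per kilobase of transcript, scaled to the reads mapped). RNA was sequenced from whole hearts of C57BL/6 mice at postnatal day 12, with 4 libraries of wild type littermates and 4 of mice with an endothelial knockout of PHD2 and PHD3. These oxygen-dependent prolyl hydroxylases are encoded by Egln1 and Egln3 and mark hypoxia-inducible factors for degradation. The promoter that drives the endothelial deletion is not given in the sources used here. The labels also leave unsaid whether separate animals were used for each library, so a heart named below stands for 1 library. The p-values therefore measure only the spread among these libraries.

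In most cells CAV1 and the cavin PTRF are both needed to form caveolae, CAV2 joins CAV1 in the coat, and SDPR and PRKCDBP join PTRF. Striated muscle uses its own caveolin, CAV3, and its own cavin, MURC. EHD2 is an ATPase that sits at the caveolar neck and holds caveolae at the surface, and PACSIN2 is an F-BAR protein that bends the membrane there. Capillary endothelium, adipocytes and smooth muscle are rich in caveolae, and in the endothelium CAV1 also binds and inhibits the nitric oxide synthase NOS3. A whole heart therefore mixes caveolar genes of endothelial and stromal cells (Cav1, Cav2, Ptrf, Sdpr, Prkcdbp, Ehd2) with the muscle forms (Cav3, Murc). The cell types that gave each gene's RNA were not measured, so RNA of Ptrf or Ehd2, for example, may come partly from cardiomyocytes. A lower level in such a sample cannot tell fewer cells of a type from less RNA per cell.

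In mm10, with GENCODE M21 annotation, Cav2 (chromosome 6, 17281185 to 17289115) lies directly before Cav1 (17306335 to 17341452) on the plus strand, with a gap of 17219 bases and 0 annotated genes wholly between them. The antisense gene Gm15581 overlaps both. Cav3 lies farther along the same chromosome (112459505 to 112472872, plus strand). Ptrf is on chromosome 11 (100956733 to 100970887, minus strand) and Murc on chromosome 4 (48663514 to 48673502, plus strand). Sdpr (chromosome 1, 51289126 to 51302960, plus strand) is overlapped by the antisense gene 9330175M20Rik, and Prkcdbp (chromosome 7, 105480083 to 105482300, minus strand) by Gm45667 on the other strand. Ehd2 is on chromosome 7 (15946958 to 15967567, minus strand). Pacsin2 (chromosome 15, 83375607 to 83464606, minus strand) overlaps the processed pseudogene Gm5417. Whole gene spans were compared, and shared exons were not checked. The sources used here do not say whether the quantification used strand. Where they overlap, reads of Cav1, Cav2, Sdpr and Prkcdbp may therefore not be told apart from those of the other gene. Gm5417 lies on the same strand as Pacsin2, so strand would not separate their reads.

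The stretches just before the start sites of 3 members are shown because the results turn on them: Sdpr had the lowest p of the 9, Cav1 was the most abundant member, and Cav3 was the muscle caveolin. They come from RefSeq promoter windows on GRCm38.p6, the build also called mm10. Each stretch holds the 250 bases before the start, read 5′ to 3′ on the plus strand. Capitals mark ACGTG and GCGTG, the core letters of the hypoxia response element that hypoxia-inducible factors bind, on either strand (CACGT and CACGC on the other).
Sdpr, chr1:51288876-51289125: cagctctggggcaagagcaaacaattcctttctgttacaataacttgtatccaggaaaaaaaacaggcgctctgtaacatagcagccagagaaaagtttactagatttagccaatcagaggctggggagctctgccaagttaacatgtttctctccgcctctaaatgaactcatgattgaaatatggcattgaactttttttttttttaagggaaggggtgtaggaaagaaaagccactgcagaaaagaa
Cav1, chr6:17306085-17306334: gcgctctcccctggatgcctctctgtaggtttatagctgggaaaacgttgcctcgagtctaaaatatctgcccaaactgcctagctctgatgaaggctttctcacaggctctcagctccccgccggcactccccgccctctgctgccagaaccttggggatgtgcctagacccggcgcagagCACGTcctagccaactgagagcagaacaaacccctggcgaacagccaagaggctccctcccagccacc
Cav3, chr6:112459255-112459504: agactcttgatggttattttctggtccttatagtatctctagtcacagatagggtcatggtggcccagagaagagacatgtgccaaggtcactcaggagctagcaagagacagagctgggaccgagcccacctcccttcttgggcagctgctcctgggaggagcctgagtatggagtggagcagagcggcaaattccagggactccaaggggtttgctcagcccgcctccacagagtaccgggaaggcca

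Over the full windows, which reach from 250 bases before to 50 bases after the start, Sdpr and Cav2 held neither motif. The upstream Cav1 window held 1 ACGTG match, which begins at position -68, and the second Cav1 window held none. Cav3 held 1 GCGTG match at position 39 after the start, outside the stretch shown, and Ptrf 1 ACGTG match, also after the start. Murc held 1 ACGTG match and Ehd2 3 GCGTG matches, and 2 of the 3 Pacsin2 windows held 1 GCGTG match. RefSeq windows were found for 8 of the 9 members. Of all 32817 windows, 19.6% held ACGTG and 32.4% held GCGTG, and 43.8% held at least 1 of them. A match describes the letters only, and nothing on binding was measured here. The Sdpr window was also the poorest in G and C of those found, at 43.3%, against 59.3% in the upstream Cav1 window and 58.0% in that of Cav3.

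The targeted genes were not lowered in the whole hearts labelled knockout. Egln1 was at 45.2 to 57.9 FPKM in wild type and 52.6 to 63.5 FPKM in the hearts labelled knockout (adjusted p = 0.442), and Egln3 at 18.0 to 38.7 and 32.6 to 52.8 FPKM (adjusted p = 0.132), so the genotype is taken from the labels. With Ddx3y, a Y chromosome gene, as a covariate Egln3 passed as raised (log2 change 0.70, adjusted p = 0.0222). The table was quantile normalised by the authors, so all libraries share nearly 1 set of values and sequencing depth is unknown. Over all genes tested, 701 (6.15%) were raised and 684 (6.01%) lowered at adjusted p under 0.05 in limma, and 10.3% lay higher and 10.4% lower in all 4 knockout than in all 4 wild type libraries. The number raised was 288, 424 and 356 without wild type replicate 2, 3 or 4 and 382 and 455 without knockout replicate 2 or 3. The number lowered was 455, 286, 414 and 386 without wild type replicate 1, 2, 3 or 4 and 377 and 441 without knockout replicate 2 or 3. Wild type replicate 4 stood apart through airway secretory genes. Its 8 lung epithelium markers summed to 1244 FPKM, nearly all from Scgb1a1 and Scgb3a2, against 0.401 to 1.14 FPKM in the other 7 libraries. Sftpa1, Sftpd and Sftpb, surfactant genes, were at 3.83, 3.06 and 0.454 FPKM there and at 0 to 0.0453 FPKM in the other 7. Ager, a marker of the caveola-rich alveolar type I cells, was at 0.583 FPKM there and at 0.194 to 0.595 FPKM in the other wild type hearts, Sftpc was listed at 0 there and Cldn18 at 0 throughout. The library number of knockout replicate 4 lies apart from the other 7, which run close together.

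The caveolar genes did not move as 1 block. Of the 9 members, 2 were lowered (Sdpr and Ptrf), 0 were raised and 7 did not pass the test, against 6.01% lowered and 6.15% raised over all genes. At an unadjusted p under 0.05, 2 members lay higher (Cav3 and Pacsin2) and 4 lower (Cav2, Ehd2, Ptrf and Sdpr), beside 14.9% and 14.8% of all genes. With array weights, or without knockout replicate 1, 1 member was raised (Cav3) and 4 were lowered. These settings also gave more calls over all genes. Array weights gave 973 raised and 1055 lowered, and omission of knockout replicate 1 gave 931 and 888, against 701 and 684 in the main fit. In 4 members (Cav2, Ptrf, Sdpr and Ehd2) every knockout value lay below every wild type value, and in 1 (Pacsin2) above, against 10.4% and 10.3% of all genes. The median log2 change of the members was -0.14, beside -0.01 over all genes tested. The members were chosen with earlier results of these data known, so these counts describe the set.

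**Figure D1:**
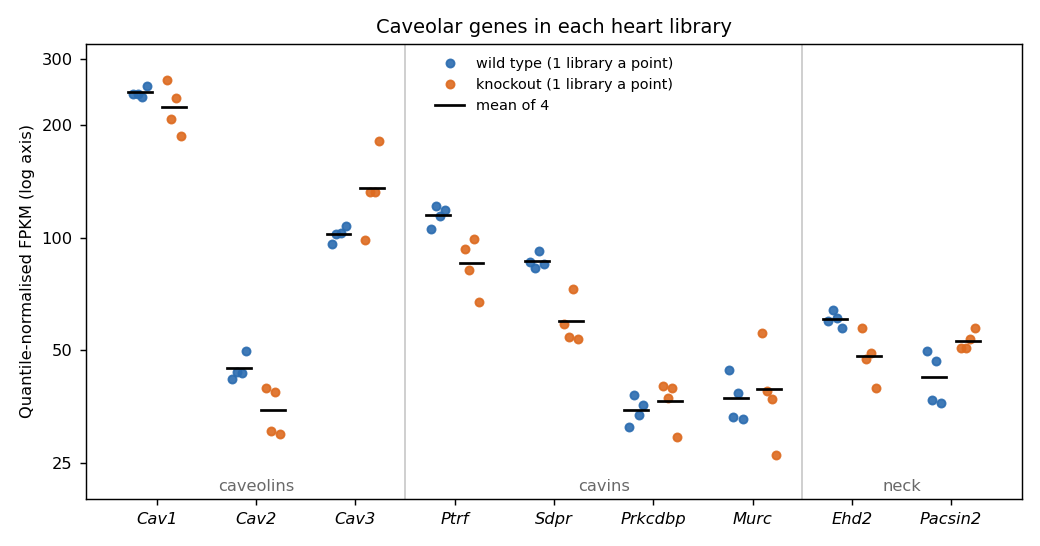
Quantile-normalised FPKM (log axis) of the 9 caveolar genes. Points are single libraries (wild type blue, knockout orange) and black lines are means of 4. The orange points of Sdpr (53.6 to 73.1 FPKM) all lie below the blue points (82.8 to 92.4 FPKM), while those of Cav1 (187 to 265 FPKM) span the blue ones (238 to 255 FPKM).

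All 9 genes were well expressed: their means over the 8 libraries lay above those of 84.5% (Prkcdbp) to 97.1% (Cav1) of the genes tested. On the FPKM scale, which is per transcript length, Cav1 was the highest member in every library. In all 4 wild type hearts Ptrf came next, then Cav3, Sdpr and Ehd2. In all 4 knockout hearts Cav3 stood above Ptrf. The wild type ranges of Ptrf (106 to 122 FPKM) and Cav3 (96.4 to 108 FPKM) overlapped between libraries, though Ptrf was the higher within each. The lower members, Cav2, Pacsin2, Murc and Prkcdbp, changed places from library to library in both groups.

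Among the caveolins, Cav1, the principal coat protein, was at 243, 243, 238 and 255 FPKM across wild type hearts 1 to 4 and 265, 208, 237 and 187 FPKM across knockout hearts 1 to 4. The highest and the lowest value were both from knockout hearts, so the groups overlapped fully. The log2 change was -0.14 ± 0.10 (SE, n = 4 and 4; adjusted p = 0.411), with a 95% confidence interval of -0.37 to 0.10. The spread was wider in the knockout, with a coefficient of variation of 15.2% against 2.93% in wild type. Values that agree exactly between libraries, such as the first pair for Cav1, come from the shared ladder of the quantile normalisation.

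Cav2, which needs CAV1 to reach the cell surface, was at 41.9, 43.7, 43.4 and 49.7 FPKM across wild type hearts 1 to 4 and 39.6, 30.3, 38.8 and 29.9 FPKM across knockout hearts 1 to 4. Every knockout heart lay below every wild type heart, 2 of them by a small margin. The log2 change of -0.37 ± 0.11 missed the threshold (adjusted p = 0.0584; 95% confidence interval -0.61 to -0.12). Without knockout replicate 1 it passed (adjusted p = 0.0301). The ratio of Cav1 to Cav2 FPKM was 5.13 to 5.80 in wild type and 6.12 to 6.86 in knockout hearts, with no overlap. That separation partly restates the values of Cav2, which alone lay lower in every knockout heart. A single scale factor per library would cancel in such a ratio. The quantile normalisation works by rank and need not cancel in this or the other ratios.

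Cav3, the caveolin of cardiomyocytes and skeletal muscle, was at 96.4, 103, 103 and 108 FPKM across wild type hearts 1 to 4 and 98.4, 132, 133 and 181 FPKM across knockout hearts 1 to 4. Knockout replicates 2 to 4 lay above all wild type hearts, and knockout replicate 1 lay within their range. The log2 change was 0.38 ± 0.15 and missed the threshold (adjusted p = 0.134; 95% confidence interval 0.03 to 0.72). It was 0.52 without knockout replicate 1 (adjusted p = 0.0205) and 0.23 without knockout replicate 4 (adjusted p = 0.192).

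Cav1 exceeded Cav3 by 2.31- to 2.52-fold in the wild type libraries and by 2.69, 1.57, 1.78 and 1.03-fold in knockout replicates 1 to 4. In knockout replicate 4 the muscle caveolin was thus nearly level with Cav1. Cav3 made up 25.3% to 26.8% of the summed caveolin FPKM in wild type and 24.4%, 35.7%, 32.5% and 45.5% in the knockout hearts. Of the 8 cardiomyocyte markers 0 were raised, and 4 had a log2 change above 0, beside 6.15% raised and 6.01% lowered over all genes. Their summed level, carried by Myl2 and Actc1, was 35403 to 39669 FPKM in wild type and 28062 to 36767 FPKM in knockout hearts, lowest in knockout replicate 4, and 1 of 8, the troponin gene Tnni3, was lowered (adjusted p = 0.0169). Ryr2, the calcium release channel, was at 39.0 to 61.6 FPKM in wild type and 49.1, 62.7, 93.6 and 110 FPKM in knockout replicates 1 to 4 (log2 change 0.54, adjusted p = 0.181). It is 1 of the 8 markers and was named after its values were seen. Myl2 ran the other way, at 14925, 11528, 11528 and 7544 FPKM in knockout replicates 1 to 4. Relative to the geometric mean of these markers, a ratio added after the data were seen, Cav3 was at 0.0636 to 0.0740 in wild type and 0.0701, 0.0978, 0.0846 and 0.124 in knockout hearts. The call of Tnni3 was lost without knockout replicate 2 (adjusted p = 0.0519).

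**Figure D2:**
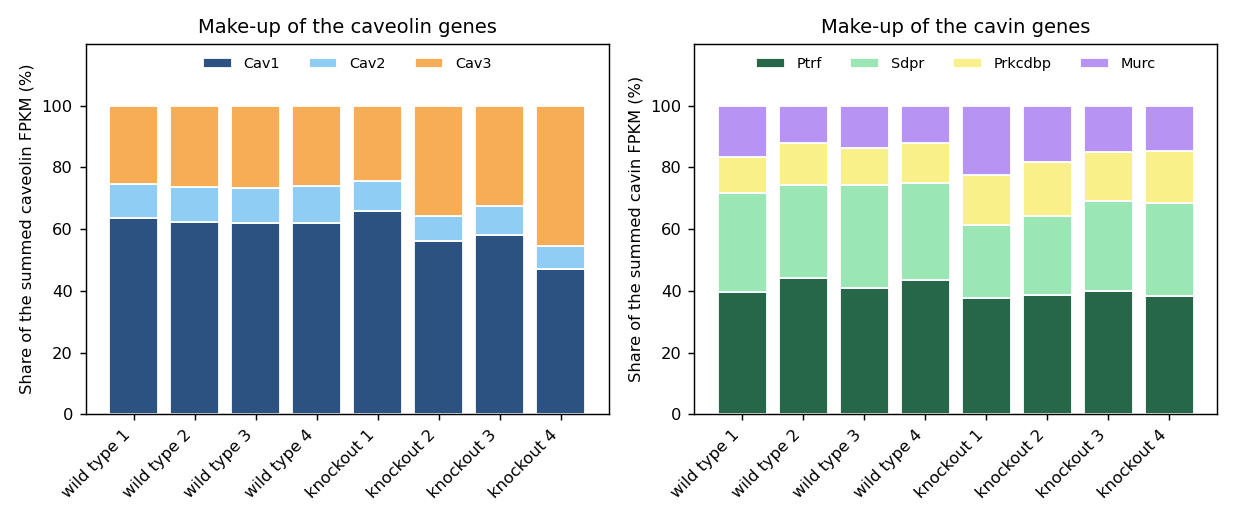
Stacked bars give the share (%) of each gene in the summed FPKM of the 3 caveolins (left) and the 4 cavins (right) in each of the 8 heart libraries. The Cav3 share is near 26% in all wild type bars and 45.5% in knockout replicate 4, and the Sdpr share is 23.7% to 30.4% in the knockout bars against 30.0% to 33.2% in the wild type bars.

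Among the cavins, Sdpr fell. This membrane-binding coat protein helps to shape caveolae and is needed for caveolae in the endothelium of some tissues. It was at 85.9, 82.8, 92.4 and 85.0 FPKM across wild type hearts 1 to 4 and 58.7, 54.2, 73.1 and 53.6 FPKM across knockout hearts 1 to 4. The groups were separate, with the highest knockout heart below the lowest wild type heart. The fall was 1.44-fold in mean FPKM, a log2 change of -0.53 ± 0.10 (adjusted p = 0.0119; 95% confidence interval -0.76 to -0.30). The call was kept in all 8 omissions of 1 library (adjusted p 0.00301 to 0.0397). It was not kept when the test asked for a change of more than 1.2-fold (adjusted p = 0.268).

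Ptrf, the cavin without which caveolae do not form, was at 106, 122, 114 and 118 FPKM across wild type hearts 1 to 4 and 93.3, 81.8, 99.2 and 67.5 FPKM across knockout hearts 1 to 4. Here too every knockout heart lay below every wild type heart. Mean FPKM was 1.35-fold lower, a log2 change of -0.44 ± 0.12 (adjusted p = 0.0403; 95% confidence interval -0.70 to -0.18). The call was kept without knockout replicate 1, 3 or 4 (adjusted p 0.0320, 0.0336 and 0.0374) and lost in the other 5 omissions: adjusted p was 0.0559, 0.119, 0.0847 and 0.0957 without wild type replicate 1, 2, 3 or 4, and 0.0974 without knockout replicate 2. It was also lost with a covariate for the Y chromosome gene Ddx3y (adjusted p = 0.0713), with a log2 change of -0.40. Ddx3y was at 14.0, 0.138, 1.10 and 15.0 FPKM in wild type and 0.104, 16.8, 19.3 and 22.2 FPKM in knockout replicates 1 to 4. Sdpr was lowered with that covariate too (adjusted p = 0.0222).

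Prkcdbp, the cavin that links caveolae to protein kinase C delta signalling, showed no such separation. It was at 31.2, 37.9, 33.4 and 35.7 FPKM across wild type hearts 1 to 4 and 40.0, 37.1, 39.7 and 29.2 FPKM across knockout hearts 1 to 4. The groups overlapped, with a log2 change of 0.07 ± 0.11 (adjusted p = 0.706; 95% confidence interval -0.18 to 0.32). The ratio of Prkcdbp to Ptrf was 0.293 to 0.311 in wild type and 0.400 to 0.454 in knockout hearts, with no overlap. The ratio of Sdpr to Ptrf overlapped between the groups, at 0.680 to 0.813 and 0.629 to 0.795. The ratio of Ptrf to Cav1, cavin against caveolin of the same coat, was 0.435 to 0.501 in wild type and 0.352 to 0.418 in knockout hearts, again with no overlap. Ptrf alone already lay lower in every knockout heart, so both separations partly restate its fall.

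Murc, the cavin of heart and skeletal muscle, had the widest spread relative to its mean among the knockout hearts. It was at 44.2, 33.2, 38.5 and 32.8 FPKM across wild type hearts 1 to 4 and 55.5, 38.9, 37.0 and 26.1 FPKM across knockout hearts 1 to 4. The knockout hearts held both the highest and the lowest value, with a coefficient of variation of 30.8%. The log2 change was 0.04 ± 0.20 (adjusted p = 0.906; 95% confidence interval -0.40 to 0.49). With wild type replicate 2 or 4, or knockout replicate 1, left out the sign turned (log2 change -0.0060, -0.012 and -0.13). The muscle caveolin and the muscle cavin ran in opposite order in the outer knockout libraries: replicate 1 had the lowest Cav3 and the highest Murc of the knockout hearts, and replicate 4 the highest Cav3 and the lowest Murc.

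**Figure D3:**
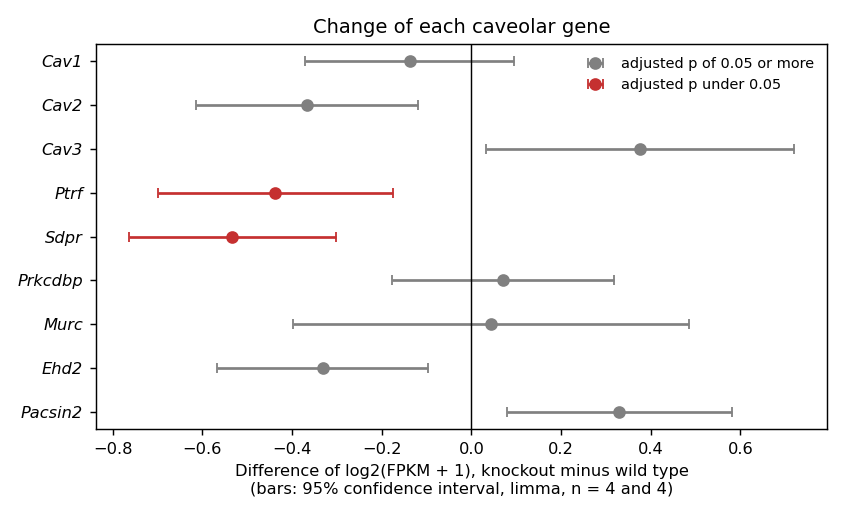
Difference of log2(FPKM + 1), knockout minus wild type, for the 9 caveolar genes, with 95% confidence intervals from limma (4 and 4 libraries); red marks adjusted p under 0.05. Sdpr (-0.53) and Ptrf (-0.44) are red, and the intervals of Cav1, Prkcdbp and Murc cross 0.

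The genes of the caveolar neck lay on opposite sides. Ehd2 was at 59.8, 64.0, 61.1 and 57.4 FPKM across wild type hearts 1 to 4 and 57.2, 47.4, 49.2 and 39.6 FPKM across knockout hearts 1 to 4. The groups did not overlap, though knockout replicate 1 lay just under the lowest wild type heart. The log2 change of -0.33 ± 0.11 did not pass the test (adjusted p = 0.0682; 95% confidence interval -0.57 to -0.10) and passed without knockout replicate 1 (adjusted p = 0.0205). The ratio of Ehd2 to Cav1 overlapped, at 0.225 to 0.264 in wild type and 0.207 to 0.228 in knockout hearts.

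Pacsin2, which is expressed in many cell types and also acts in endocytosis outside caveolae, was at 49.7, 36.9, 46.8 and 36.1 FPKM across wild type hearts 1 to 4 and 50.6, 50.8, 53.6 and 57.3 FPKM across knockout hearts 1 to 4. The wild type hearts fell into a higher and a lower pair, and the knockout hearts lay close together above both. The log2 change of 0.33 ± 0.11 did not pass the test (adjusted p = 0.0835; 95% confidence interval 0.08 to 0.58). Its adjusted p was 0.0504 without wild type replicate 1.

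Endothelial markers were also lower in part. Of 12 markers, 4 were lowered (Ushbp1, Tie1, Tek and Robo4) and 0 raised, beside 6.01% lowered and 6.15% raised over all genes. The other 8 did not pass the test, and the median log2 change of the 12 was -0.23. Their summed level was 594 to 712 FPKM in wild type and 522 to 625 FPKM in knockout hearts, and none was at 0. Egfl7, a secreted endothelial factor and the marker with the highest mean, was at 159 ± 33.5 and 135 ± 7.61 FPKM (SD, n = 4; adjusted p = 0.305). Pecam1, the junctional adhesion molecule, lay higher in every knockout heart, at 89.7 to 100.1 FPKM in wild type and 102 to 119 FPKM in the knockout (adjusted p = 0.0665). Of the 12 markers, 1 lay higher and 5 lay lower in every knockout heart: the 4 lowered ones and Cdh5. Cdh5 was at 93.5 to 97.0 FPKM in wild type and 72.1 to 92.9 FPKM in the knockout (adjusted p = 0.102). Over all genes tested, 10.3% lay higher and 10.4% lower in every knockout library. The part of the endothelial markers in the falls of Sdpr and Ptrf was not tested. All 4 lowered markers kept their call in each of the 8 omissions of 1 library.

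Set against the geometric mean of all 12 markers within each library, the 2 lowered cavins overlapped between the groups. The mean itself was lower in every knockout heart, at 38.9 to 43.9 FPKM in wild type and 29.6 to 36.3 FPKM in the knockout. Dividing by it shifts every ratio up in the knockout, also for a gene whose own level did not change. Sdpr was at 1.93 to 2.38 times this mean in wild type and 1.62 to 2.21 times in knockout hearts, and Ptrf at 2.67 to 2.94 and 2.26 to 2.99 times. Cav2 (1.05 to 1.13 and 1.002 to 1.17) and Ehd2 (1.31 to 1.57 and 1.33 to 1.60) overlapped as well. On this scale Cav1 and Prkcdbp were higher in every knockout heart: Cav1 was at 5.80 to 6.14 in wild type and 6.26 to 7.29 in knockout hearts, and Prkcdbp at 0.787 to 0.911 and 0.980 to 1.25.

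The ratios were also taken to the 8 markers that were not called, a setting added after the data were seen. Because the markers left out were those lowered, this setting shifts every ratio down in the knockout by its construction. Against these 8, Cav1 (4.13 to 4.56 in wild type, 4.05 to 4.58 in knockout hearts) and Prkcdbp (0.577 to 0.669 and 0.634 to 0.792) overlapped. On that scale Cav2 did not overlap (0.771 to 0.813 and 0.647 to 0.749). Sdpr (1.38 to 1.73 and 1.002 to 1.41) overlapped through 1 library pair, and in Ptrf (1.92 to 2.15 and 1.46 to 1.92) the highest knockout heart was level with the lowest wild type heart.

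**Figure D4:**
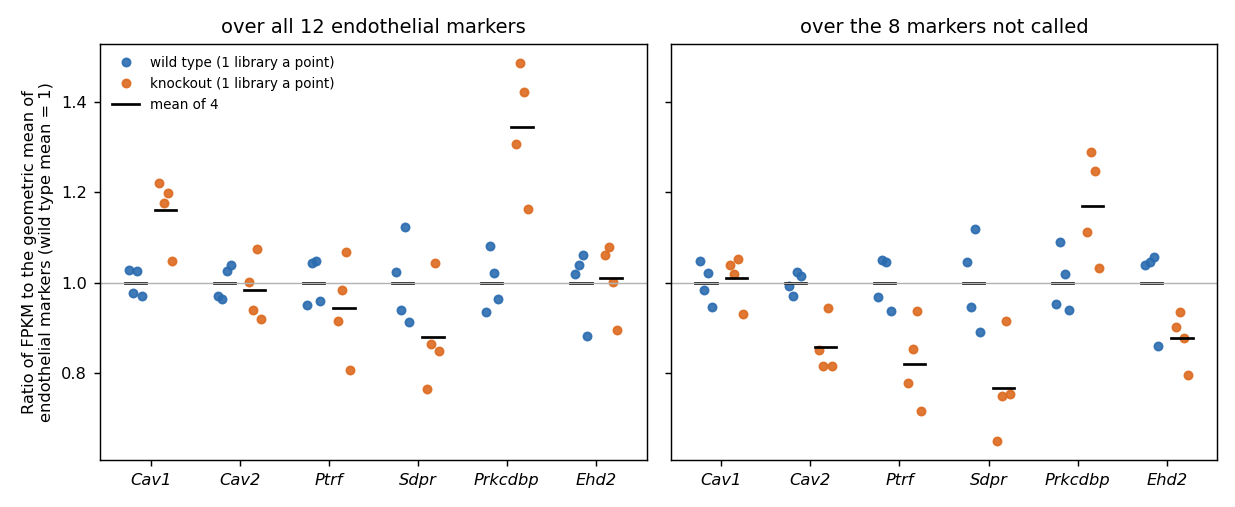
Ratio of FPKM of 6 caveolar genes to the geometric mean of endothelial markers in each library, divided by the wild type mean; left, all 12 markers, and right, the 8 not called. Blue points are wild type, orange points knockout and black lines means of 4. On the left the orange points of Cav1 and Prkcdbp lie above all their blue points, and on the right those of Cav2 lie below. The mean of all 12 markers was itself lower in every knockout heart.

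Markers of other cell types gave the values below. Over all genes tested, 6.15% were raised, 6.01% lowered and 10.3% higher in every knockout library. The 8 smooth muscle and pericyte markers summed to 706 to 1159 FPKM in wild type and 689 to 980 FPKM in knockout hearts, with Acta2 and Rgs5 the highest, 1 raised (Tagln, adjusted p = 0.0119) and 0 lowered. The 7 fibroblast markers summed to 882 to 1046 and 603 to 996 FPKM, with 0 raised and 2 lowered (Dcn, adjusted p = 0.00476, and Lum, adjusted p = 0.0366). Adipocyte markers were near 0, with 2 of 6 tested and a sum of 0 to 5.80 FPKM in wild type and 0 to 19.0 FPKM in knockout hearts, highest in knockout replicate 2. Adipoq and Cidec were listed at 0 in wild type replicate 2 and in knockout replicate 4. Atrial markers summed to 2478 to 3865 and 2860 to 11820 FPKM, with 0 of 5 called. Nppa, the natriuretic peptide gene that carried the knockout sum, lay higher in every knockout heart (2.91-fold in mean FPKM, adjusted p = 0.0580), and Sln was 1.77-fold lower in mean FPKM (adjusted p = 0.114). The right atrial gene Bmp10 was above 49 FPKM in replicates 2 and 3 of both groups and at most 1.12 FPKM in the others. Macrophage markers (27.6 to 30.8 and 29.2 to 32.3 FPKM; 0 of 6 called) overlapped. Of 5 mesothelium markers 2 were raised (Wt1 and Krt19). The call of Lum was lost without wild type replicate 1, 2, 3 or 4 (adjusted p 0.0730, 0.0825, 0.0817 and 0.0886) or knockout replicate 2 or 3 (0.0598 and 0.0755). That of Krt19 was lost without wild type replicate 1, 2 or 3 (0.0650, 0.0735 and 0.0658) or knockout replicate 1, 2 or 4 (0.0532, 0.0662 and 0.0688). With Bmp10 as a covariate, Sdpr (adjusted p = 0.0165) and Ptrf (adjusted p = 0.0435) were still lowered. For the other cell types, their part in these falls was not tested.

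Further genes of the caveolar neck and of membrane rafts were called at about the share of all genes. Of 16 listed genes 15 were tested, of which 1 was raised, 1 lowered and 13 did not pass the test. Over all genes tested, 6.15% were raised and 6.01% lowered. The median log2 change of the list was 0.08. Within the EHD family, Ehd1, an ATPase of endosomal recycling, fell from 49.6 ± 2.91 to 38.1 ± 2.25 FPKM (adjusted p = 0.0144, log2 change -0.37 ± 0.08). Ehd3, a close paralog, rose from 1.30 ± 0.113 to 3.98 ± 2.15 FPKM (adjusted p = 0.0271, log2 change 1.02 ± 0.24). Reads may be divided between such paralogs, so their values are uncertain. Ehd4, the highest of the family at 136 ± 19.2 and 167 ± 12.2 FPKM, did not pass the test (adjusted p = 0.0992). The call of Ehd1 was lost without wild type replicate 2 (adjusted p = 0.0540). That of Ehd3 was lost without wild type replicate 1, 2, 3 or 4 (adjusted p 0.0529, 0.0801, 0.0643 and 0.0656) or knockout replicate 2 (0.0702). The raft scaffold gene Flot1 (66.0 ± 5.47 and 78.2 ± 8.46 FPKM, adjusted p = 0.124) and the actin cross-linker Flna (84.1 ± 10.2 and 68.1 ± 16.6 FPKM, adjusted p = 0.248) were not called.

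Of 11 genes whose proteins are known from endothelial or adipocyte caveolae, 1 was raised, 1 lowered and 9 did not pass the test. This stands beside 6.15% raised and 6.01% lowered over all genes. Kdr is also among the endothelial markers, and the median log2 change of the list was 0.06. Aqp1, the endothelial water channel, fell from 131 ± 11.0 to 34.7 ± 12.5 FPKM (adjusted p = 0.00295, log2 change -1.97 ± 0.27), a fall far larger than that of any caveolar coat gene. Bmpr2, the type II receptor for bone morphogenetic proteins, rose from 4.13 ± 1.31 to 8.47 ± 2.23 FPKM (adjusted p = 0.0270, log2 change 0.89 ± 0.21). The call of Bmpr2 was lost without wild type replicate 2 (adjusted p = 0.0823), wild type replicate 4 (0.0610) or knockout replicate 3 (0.0687). Cd36, the fatty acid translocase, was at 434 ± 63.2 and 433 ± 92.5 FPKM (adjusted p = 0.958). The insulin-responsive glucose transporter Slc2a4 (61.8 ± 7.22 and 64.2 ± 7.94 FPKM, adjusted p = 0.773) and the coagulation inhibitor Tfpi (41.4 ± 4.57 and 35.7 ± 8.45 FPKM, adjusted p = 0.333) were not called either.

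Around the muscle caveolin, 2 of 12 genes of the T-tubule and the dystrophin complex were raised, 0 were lowered and 10 did not pass the test. Their median log2 change was 0.11. Over all genes tested, 6.15% were raised and 6.01% lowered. Trim72, a membrane repair protein that works with CAV3, rose from 54.1 ± 10.4 to 83.5 ± 13.2 FPKM (adjusted p = 0.0328, log2 change 0.62 ± 0.16). Sgcd, a sarcoglycan of the dystrophin complex, rose from 6.15 ± 1.70 to 12.1 ± 3.10 FPKM (adjusted p = 0.0235, log2 change 0.88 ± 0.20). Both calls depended on the libraries included. That of Trim72 was lost without wild type replicate 1, 2 or 4 (adjusted p 0.0620, 0.0727 and 0.0625) or knockout replicate 2 or 3 (0.0857 and 0.0534), and that of Sgcd without wild type replicate 2, 3 or 4 (0.0685, 0.0520 and 0.0539) or knockout replicate 2 or 3 (0.0526 and 0.0535). The junctional protein gene Jph2 (90.1 ± 7.66 and 107 ± 21.4 FPKM, adjusted p = 0.298) and the phosphofructokinase Pfkm (226 ± 28.3 and 200.4 ± 4.93 FPKM, adjusted p = 0.284) were not called.

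Genes of the clathrin coat, another route of uptake at the plasma membrane, gave 0 raised and 0 lowered of 13 tested in limma. Over all genes tested, 6.15% were raised and 6.01% lowered. Of the 13, 3 (Cltb, Epn1 and Picalm) had an unadjusted p under 0.05, beside 29.6% of all genes, and the median log2 change was -0.05. The adaptor subunits Ap2m1 (95.4 ± 3.36 and 90.5 ± 7.45 FPKM, adjusted p = 0.530) and Ap2s1 (74.8 ± 6.09 and 72.1 ± 3.96 FPKM, adjusted p = 0.719) overlapped between the groups. Picalm, a clathrin assembly protein, was lower in every knockout heart without passing the test (69.8 ± 4.89 and 59.9 ± 4.91 FPKM, adjusted p = 0.118). Ap2a1, another adaptor subunit, was higher in every knockout heart, at 18.7 to 21.5 and 21.8 to 24.0 FPKM (adjusted p = 0.208). Over all genes tested, 10.4% lay lower and 10.3% higher in every knockout library.

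Likeness to Cav1 and to Cav3 across the 8 libraries was measured as the root mean square difference of log2(FPKM + 1) values after each gene's mean was removed, over all tested genes outside the members. The nearest to Cav1 were Adcyap1r1 (0.0349), Srek1 (0.0444), Gnb4 (0.0487), U2af2 (0.0494) and Icosl (0.0510). Adcyap1r1 and Icosl had means of only 1.19 and 1.83 FPKM, against 234 FPKM for Cav1. At such levels the added 1 FPKM narrows differences between libraries. Nearest to Cav3 were Tigd2 (0.0719), Irx4 (0.0758), Ubtd1 (0.0804), Aldh1b1 (0.0842) and Pon2 (0.0842), whose log2 changes of 0.29 to 0.42 bracket its own. With 11390 genes to choose from and 8 libraries, such neighbours are a description only.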

How the data were processed

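Per the labels' protocols, heart RNA was purified with an RNeasy Miniprep kit before TruSeq library preparation. TopHat2, Cufflinks and mm10 are named in the submitters' processing notes, without versions. The deposited table names no unit; its values were read as FPKM that the authors quantile normalised, because the 39 highest ranks hold 1 value in all 8 columns. Total counts and depth are therefore unknown, and no interval from counts is given.

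Genes whose 8-sample mean reached 1 FPKM were compared on log2(FPKM + 1) in limma 3.58.1 (R 4.3.3; lmFit, eBayes with trend and robust, no covariate), with Benjamini-Hochberg adjustment over 11390 genes, called at adjusted p under 0.05. Fold changes on this scale understate those of low genes. Ratios within a library were described without a test. The function was tested on simulated data first. Python 3.11.15, pandas 2.3.3 and matplotlib 3.10.9 were used for the rest. The members, lists and alternatives were chosen with earlier results of these data known. Named were all members, the targeted genes, called genes of each pathway list with up to 3 of the highest others, the 2 highest markers per list where described, and 5 neighbours of Cav1 and of Cav3; other genes named were chosen after their values were seen. One gene that this rule names is not reported here. Protein sequences were not used here. Coordinates came from GENCODE M21, which held 21739 of 22518 identifiers.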

Additional observations from a re-analysis of the deposited data

Results flagged for a closer look

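In wild type replicate 4 the summed level of 8 lung epithelium markers was 1244 FPKM, far from the other wild type hearts (0.401 to 0.675 FPKM), by the gap to the nearest sample over the range of 4 samples. In the same library the summed level of 5 mesothelium markers was 65.8 FPKM, against 35.3 to 35.9 FPKM in the other wild type hearts. The ratio of Ehd2 to the 8 endothelial markers not called was also low there, at 0.930 against 1.12 to 1.14 in the other wild type hearts. In all, 96 groups of 4 were checked, and about 1 in 20 would be set apart when nothing differs. Without this library the log2 change was -0.54 for Sdpr (adjusted p = 0.0338), -0.42 for Ptrf (adjusted p = 0.0957) and -0.12 for Cav1 (adjusted p = 0.573).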

How the results depend on the processing

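Each caveolar gene was refitted under 20 alternatives. Sdpr kept its direction in all of them and its call in all but the test for a change of more than 1.2-fold, with log2 changes of -0.63 to -0.48. Ptrf kept its direction in all and lost its call in 10. Cav1, Prkcdbp, Murc and Pacsin2 were called in none, and Cav2, Cav3 and Ehd2 passed in 2 each (array weights and the omission of knockout replicate 1). Murc changed sign with 1 library left out, over a range of -0.13 to 0.22, and Egln1 was at -0.0041 without both replicates 4. With 1 library left out, 1 to 4 caveolar genes were lowered and 0 to 1 raised, and 286 to 888 of all genes were lowered and 288 to 931 raised. The caveolar genes lowered numbered 4 with array weights (1 raised), 1 without a filter, with the Ddx3y covariate, or without both replicates 4, and 0 for a change of more than 1.2-fold. Over all genes, array weights gave 1055 lowered, the 1.2-fold test 107 raised and 95 lowered, and omission of both replicates 4 467 raised. Against the 8 endothelial markers not called, the log2 ratio of Sdpr changed by -0.39, beside -0.19 against all 12. With the replicate number as a block, 323 genes were raised and 290 lowered, and 1 caveolar gene (Sdpr, adjusted p = 0.0263) stayed lowered, while Ptrf was at adjusted p = 0.0987. Same-numbered libraries did not deviate together over all genes tested (correlations of -0.226 to 0.102). Such weak correlations cannot exclude a pairing, and Bmp10 was high in the same replicate numbers of both groups. Whether the numbers pair the libraries is therefore unknown. The causes of these shifts were not tested. Without read counts, the limit that depth sets on each gene is unknown.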
